A study of Arabidopsis thaliana with 12 samples.

Results

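The 4 enzyme genes of sulfur, histidine and cyanate metabolism described here are APS4 (AT5G43780, probe 1198), CBL (AT3G57050, probe 2021), AT-HF (AT4G26900, probe 638) and CYN (AT3G23490, probe 896). They were found by name among the 692 probes to which the platform annotation assigns a single gene, out of 3439 probes on the array, and each of the 4 has 1 such probe. The 4 genes were chosen by their differences between the groups on these same 12 arrays, among other results, so for them that difference is described and not tested. The samples were wild-type Arabidopsis thaliana plants of the ecotype Columbia 0. In the first group of 6 arrays, the plants were kept in water for 4 h before a further 4 h in 25 mM ascorbate (pH 5.5). In the second group of 6 arrays, 2 µM staurosporine took the place of water for 4 h, and the same ascorbate step followed. Staurosporine blocks protein kinases of many families, and ascorbate, or vitamin C, is a soluble antioxidant that plants hold in large amounts. Both groups received ascorbate, so no value is a response to ascorbate itself, and the labels name no tissue.

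Plants take up sulfur as sulfate, which is inert until ATP sulfurylase joins it to ATP-derived adenylate as adenosine phosphosulfate. This compound is reduced through sulfite to sulfide, which is built into cysteine, and cysteine gives its sulfur to methionine by way of cystathionine and homocysteine. Histidine is made in plastids by a pathway that starts from phosphoribosyl pyrophosphate and ATP and returns a purine precursor as a by-product. Cyanate, a toxic small anion, is broken down by cyanase with bicarbonate to ammonia and carbon dioxide.

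Levels are given as intensity after quantile normalization, a relative scale with no absolute unit, so a level is only ever set against the level of the same probe on other arrays. The deposited array medians were 0.252 to 0.419 in the water group and 0.351 to 0.486 in the staurosporine group, and the share of probes at exactly 0 ran from 10.3% to 15.2% per array. In each group, array 1 resembled array 2, array 3 resembled array 4 and array 5 resembled array 6 (Pearson r of log2 values 0.898 to 0.981 over the 2584 probes above 0 everywhere). No r between arrays outside these pairs was computed, so these values do not show that the pairs were closer than other arrays. The pairs are called number pairs, and means ± SD are over the 3 number pairs of a group. The labels do not say whether different plants stand behind different arrays, so a p-value here sets a difference against the spread of arrays, and that spread may be technical. The RNA came from whole samples, in which fewer cells of a type and less RNA per cell cannot be told apart. Of 9 marker genes of green tissue, PSAN, a subunit of photosystem I, was the only one with a probe of its own. Its intensity was at least 1.43 on each water array and at most 0.564 on each staurosporine array. Probes 665 and 1872 both carry the same 1 gene of that marker list, each beside at least 1 gene that is not on it. Probe 665 did not follow PSAN, with 1.10 to 1.77 after water and 1.34 to 1.69 after staurosporine (log2 change 0.08 ± 0.15, limma adjusted p 0.737), and probe 1872 was listed at 0 on 5 arrays of each group. No gene on a list of 7 root, myrosin cell and seed markers had a probe of its own. The part of green tissue content in the values below was not tested.

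AT-HF and CYN had lower intensities on every staurosporine array than on any water array, APS4 had a lower mean with overlapping groups, and CBL, the only one of the 4 with arrays at or under the floor of readable values, had no settled direction. The log2 changes, staurosporine minus water with the SE over 12 arrays, were -1.84 ± 0.31 for AT-HF, -0.84 ± 0.15 for CYN, -0.81 ± 0.29 for APS4 and 0.05 ± 1.32 for CBL. Their median was -0.83, against -0.12 over all 3439 probes, some of which were set to floors, and -0.02 over the 2584 probes above 0 on all arrays, which leave out CBL. In limma 2 of the 4 genes, AT-HF and CYN, passed an adjusted p of 0.05, as did 22.9% of all probes. With the number pairs averaged to 3 samples a group, 0 of the 4 passed an adjusted p of 0.05 in limma, as against 0.262% of all probes. Both with 12 arrays and with averaged pairs these counts belong to the contrast that was in view when the genes were chosen.

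**Figure D1:**
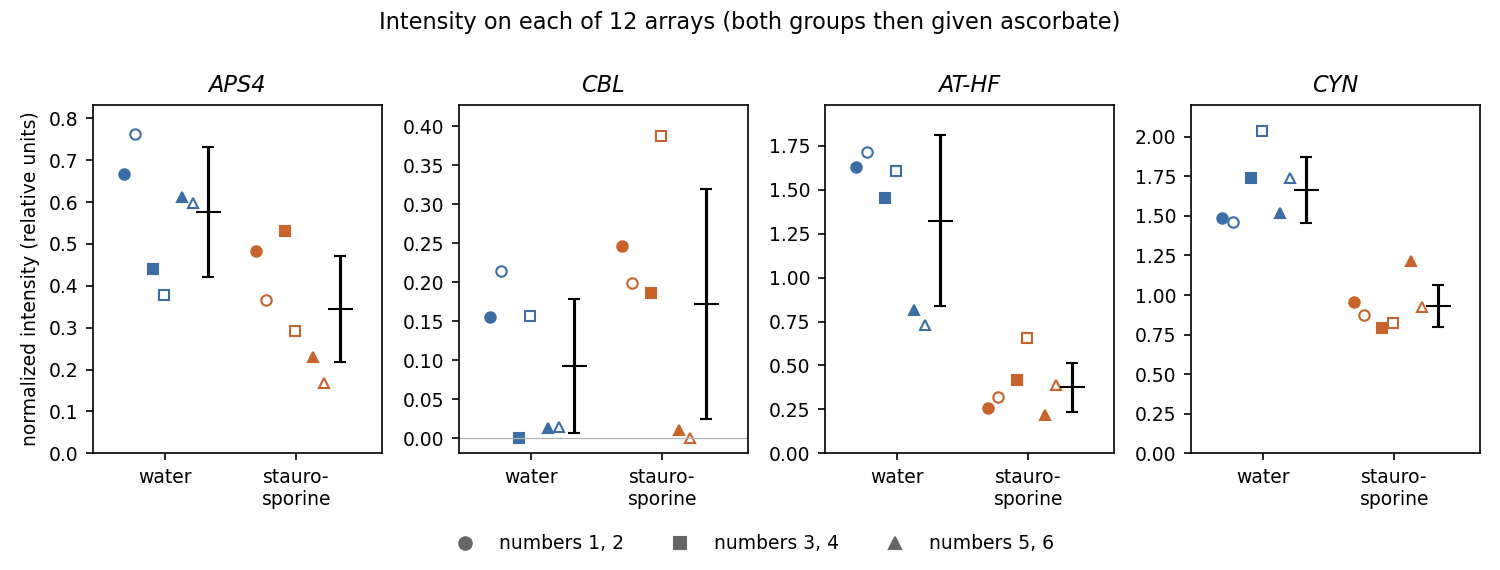
Normalized intensity (relative units, linear axis from 0) of APS4, CBL, AT-HF and CYN on the 6 water and 6 staurosporine arrays; filled and open symbols are the first and second array of a number pair, and black bars are the mean ± SD over 3 number pairs. The groups do not overlap for AT-HF and CYN, and the CBL values of numbers 5 and 6 lie near 0 in both groups.

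APS4 encodes an ATP sulfurylase, the enzyme that opens sulfate assimilation. On the 6 water arrays its intensity was 0.379 at the lowest, 0.604 at the median and 0.763 at the highest. On the 6 staurosporine arrays it was 0.169, 0.329 and 0.532. The staurosporine values thus reach down further, but the upper ones lie within the water range. The means were 0.576 ± 0.154 after water and 0.345 ± 0.127 after staurosporine (SD, n = 3 number pairs), a 1.75-fold lower level by the fitted change.

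The APS4 difference was uneven over the number pairs. Numbers 1 and 2 averaged 0.715 after water and 0.424 after staurosporine. Numbers 5 and 6 averaged 0.604 and 0.199, which is 3.04 times lower and the widest gap of the 3 pairs. Numbers 3 and 4 averaged 0.410 and 0.412 and so showed next to no difference. In that pair the 2 staurosporine arrays were themselves far apart, at 0.532 and 0.292, and the same-numbered comparison was higher after staurosporine at number 3 (log2 0.27) and lower at number 4 (-0.37). Over all 6 same-numbered comparisons APS4 was lower in 5. Without numbers 5 and 6 of both groups the log2 change was -0.44 ± 0.32.

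CBL encodes cystathionine beta-lyase, which splits cystathionine to homocysteine, the direct precursor of methionine. RefSeq lists 5 transcripts for this gene in TAIR10.1, against 1 for APS4, 1 for AT-HF and 3 for CYN, and which of them the probe detects was not tested. On the water arrays its intensity was 0 at the lowest, 0.0854 at the median and 0.214 at the highest. On the staurosporine arrays it was 0.000568, 0.192 and 0.388. The groups overlap over most of their range. Water replicate 3 was listed at 0, and water replicates 5 and 6 and staurosporine replicate 6 lay under the floor of their array, the 1st percentile of its positive values. On these 4 arrays CBL has no level that can be read, so its fitted log2 changes rest in part on floor values and are given only to show how far they move with the setting.

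The CBL values differed between array numbers in both groups. Numbers 1 and 2 averaged 0.185 after water and 0.223 after staurosporine. Numbers 5 and 6 averaged 0.0139 and 0.00533, far below every other staurosporine array and below the water arrays other than number 3. At numbers 3 and 4 the means were 0.0786 and 0.287, the first of which holds the array listed at 0. The deposited values, before any normalization here, ran from 0 to 0.144 on water arrays 1 to 4 and from 0.152 to 0.350 on staurosporine arrays 1 to 4. Deposited array medians were 0.252 and 0.259 on water arrays 1 and 2, against 0.437 and 0.431 on staurosporine arrays 1 and 2. After normalization arrays 1 to 4 overlapped, with water replicate 2 at 0.214 and staurosporine replicates 2 and 3 at 0.199 and 0.186. Over all 6 numbers the deposited value was higher after staurosporine in 5, while after normalization 3 of the 6 were lower. The log2 change was 1.37 ± 0.85 without further normalization, 0.65 ± 0.83 with an offset added to all values instead of a floor and 1.47 ± 0.85 without numbers 5 and 6, and it ran from -0.48 to 1.10 when 1 array at a time was left out. Its lowest value came without staurosporine replicate 4 and its highest without staurosporine replicate 6.

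AT-HF, also called HISN4, encodes imidazole glycerol phosphate synthase, a protein that joins a glutamine amidotransferase and a cyclase and closes the imidazole ring of histidine. Its intensity on the water arrays was 0.729 at the lowest, 1.53 at the median and 1.71 at the highest. On the staurosporine arrays it was 0.215, 0.352 and 0.656. The brightest staurosporine array, replicate 4, stayed below the dimmest water array, replicate 6. The deposited values did not overlap either, with 0.802 to 1.81 after water and 0.291 to 0.603 after staurosporine.

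The water arrays were uneven for AT-HF. Numbers 1 and 2 averaged 1.67 and numbers 3 and 4 averaged 1.53, while numbers 5 and 6 averaged 0.773. After staurosporine the same pairs averaged 0.287, 0.536 and 0.301, so the pair that was low after water was not set apart there. The ratio of water to staurosporine was 5.83 at numbers 1 and 2, 2.86 at numbers 3 and 4 and 2.57 at numbers 5 and 6. All 6 same-numbered comparisons were lower after staurosporine, with log2 changes from -2.67 to -0.91. The fitted log2 change of -1.84 is a 3.58-fold lower level and lies at the 1.22 percentile of the changes of all probes.

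CYN encodes cyanase. Its intensity was 1.46 at the lowest, 1.63 at the median and 2.03 at the highest on the water arrays. On the staurosporine arrays it was 0.790, 0.899 and 1.22. Again no staurosporine array reached the dimmest water array. The means were 1.66 ± 0.209 after water and 0.931 ± 0.131 after staurosporine (SD, n = 3 number pairs), or 1.79-fold lower by the fitted change. CYN had the smallest SD of the 4 genes between arrays of a group on the log2 scale, 0.19 after water and 0.22 after staurosporine, against 0.38 and 0.64 for APS4, 0.55 and 0.57 for AT-HF and 1.69 and 3.11 for CBL.

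By number pair, CYN averaged 1.47 and 0.916 at numbers 1 and 2, 1.89 and 0.807 at numbers 3 and 4, and 1.63 and 1.07 at numbers 5 and 6, after water and staurosporine. The pair with the widest gap in CYN, numbers 3 and 4, was the one with next to none in APS4. The log2 changes of CYN were -0.69, -1.22 and -0.62 in the 3 pairs, and all 6 same-numbered comparisons were lower after staurosporine. Its fitted change lies at the 20.4 percentile of the changes of all probes, nearer to their middle than that of AT-HF. Groups that do not overlap with staurosporine lower, as for AT-HF and CYN, were seen for 7.68% of all probes.

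**Figure D2:**
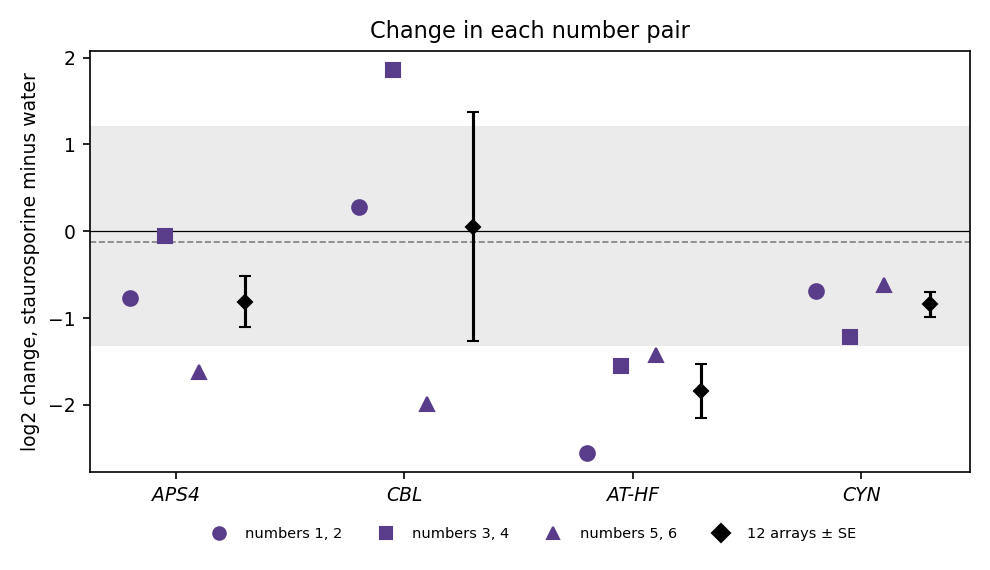
Log2 change (staurosporine minus water, vertical axis) of each gene in the 3 number pairs (coloured symbols) and over 12 arrays (black diamonds, ± SE); the grey band spans the 5th to 95th percentile of all 3439 probes, from -1.31 to 1.21, and the dashed line is their median. AT-HF and CYN are below 0 in each pair, APS4 is near 0 in numbers 3 and 4, and CBL lies on both sides of 0.

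Whether the treatment difference varied between number pairs by more than between the arrays of a pair was tested in limma with an interaction term. This term is estimated apart from the mean difference. The choice of genes may, however, have favoured a small spread between arrays, and that spread includes the interaction. The count that follows is therefore not read as a trait of these genes. The number pairs were also formed by likeness on these same arrays, which favours a small spread within a pair and so more passes. None of the 4 passed an adjusted p of 0.05, while 28.8% of all probes did. Tested alone, the 2584 probes above 0 on all arrays gave 689 that passed. The limma adjusted p was 0.0590 for APS4, 0.109 for CBL, 0.140 for AT-HF and 0.153 for CYN. The unequal changes of APS4 and AT-HF described above are therefore not shown to exceed the spread between arrays of a pair. APS4 passed without staurosporine replicate 4 (limma adjusted p 0.0217), CBL and AT-HF passed without staurosporine replicate 5 (0.0433 and 0.0440), and AT-HF passed with arrays centred on their medians (0.0234). The CBL values of this test are not read as unequal changes, since 3 water arrays and 1 staurosporine array were set to floors that differ between arrays. Probe 1872, at 0 on 5 arrays of each group, passed this test too (limma adjusted p 0.0080).

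A second test asked whether a gene's level, taken over both groups, differed between number pairs. Because the pairs were formed by likeness on these same arrays, a pass is favoured by the grouping. The results are given as a description. AT-HF passed with a limma adjusted p of 0.0273 and CBL with 0.00155, while 42.7% of all probes passed. Tested alone, the 2584 probes above 0 on all arrays gave 992 that passed. The CBL value is not read as a difference in level, since 3 of its 4 arrays at numbers 5 and 6 were set to floors that differ between arrays and probe 1872, at 0 on 10 of 12 arrays, passed too (limma adjusted p 0.000323). In the water group the pair mean of AT-HF was lowest at numbers 5 and 6. The limma adjusted p was 0.0759 for APS4 and 0.463 for CYN. AT-HF was at 0.0852 without further normalization, and it did not pass when water replicate 3, 4, 5 or 6, or staurosporine replicate 4 or 5, was left out (0.0503 to 0.0893). APS4 passed without staurosporine replicate 3 (0.0181) or 4 (0.0263).

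**Figure D3:**
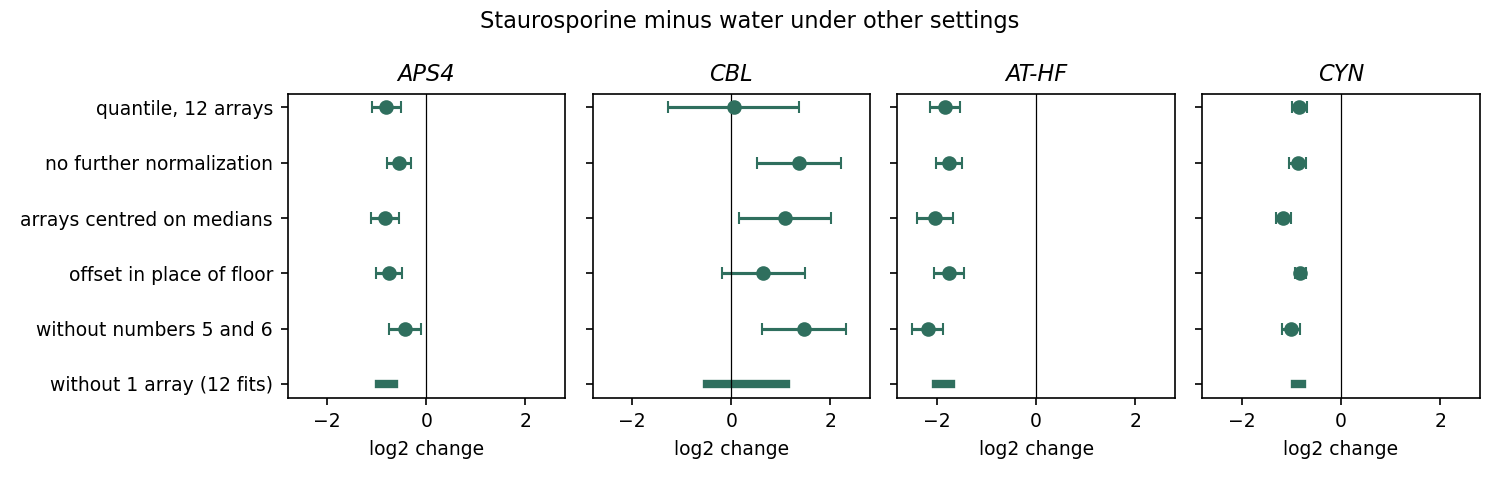
Log2 change (horizontal axis, staurosporine minus water) of each gene under 5 settings (points, ± SE) and its range when 1 array at a time is left out (thick bars, 12 fits). AT-HF and CYN stay below 0, CYN moving from -0.84 to -1.16 with arrays centred on their medians, APS4 stays below 0 with its smallest value of -0.44 without numbers 5 and 6, and CBL ranges from -0.48 to 1.47.

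The scaling of the arrays moved the whole distribution, with a median log2 change of all probes of -0.12 after quantile normalization, 0.19 without it and -0.10 after median centring. Relative to that median, the change of AT-HF was -1.72 after quantile normalization and -1.94 under both other scalings. CYN was at -0.72 and -1.06, and APS4 at -0.69 and -0.73. The fitted value of CBL, which rests in part on floor values, went from 0.17 after quantile normalization to 1.19 under the others. Both other scalings differ only by a constant per array, so these relative values are equal in them by construction and do not count separately. APS4, AT-HF and CYN were below the median probe after quantile normalization and under these other scalings.

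The rest of these pathways was hardly covered by probes of its own. Lists of 83 genes were set for sulfate transport (12 genes), sulfate activation and reduction (12), cysteine and glutathione synthesis (14), the sulfur starvation response (5), methionine synthesis and the methyl cycle (18), histidine synthesis (11) and cyanate, cyanide and bicarbonate metabolism (11). Of the 83, 4 had a single-gene probe, and these are the 4 genes described here. No other gene of these lists could be counted as higher or lower. For histidine synthesis, 2 more probes, 301 and 1473, both carry the same 2 genes of the list, and no gene is named from them. Probe 301 had an intensity of 1.18 to 1.97 after water and 1.26 to 1.73 after staurosporine, and its log2 change was 0.10 ± 0.16 (limma adjusted p 0.646). Probe 1473 was dimmer, with 0.0487 to 0.222 and 0.0680 to 0.258, and its log2 change was -0.13 ± 0.41 (limma adjusted p 0.834). Neither passed, and in both the groups overlapped, unlike in AT-HF of the same pathway; the difference between these probes and AT-HF was not tested.

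APS4, AT-HF and CYN did not move up and down together within the groups. With the group means taken off, Pearson's r over 12 arrays was -0.05 between APS4 and AT-HF, -0.43 between AT-HF and CYN and -0.60 between APS4 and CYN. No r is given for CBL, whose values were at the floor on 4 of the 12 arrays. Arrays of a number pair are alike, so these values rest on fewer than 12 separate points and are given as a description. By the same measure, the single-gene probes most like each gene were sought among those above 0 on all arrays. For CYN, among 525 candidates, they were Cpn60beta4 (0.91), a plastid chaperonin subunit, AT2G39100 (0.88) and AT1G71910 (0.82). With the group means kept, r turned to -0.55 for AT2G39100 and -0.46 for AT1G71910, whose log2 changes were 1.69 and 1.45 while CYN was lower. For Cpn60beta4 r was then 0.62. For APS4, also among 525 candidates, they were AT4G21770 (0.88), AT2G37510 (0.88) and probe 2853 of AT2G25870 (0.88). For AT-HF, again among 525, they were AT5G15390 (0.89), AT4G02040 (0.83) and AT5G52660 (0.81). With the group means kept, r was 0.91, 0.12 and 0.91 for those of APS4, in the same order. For those of AT-HF it was 0.44, 0.78 and -0.33.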

How the data were processed

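Per probe and array, the deposited table gives 1 linear intensity. The sources used here do not say how the authors made it (scanner, background correction, scaling). All 12 columns were used. Array medians differed by more than 5%, so intensities were quantile normalized. Values at 0 or under the 1st percentile of an array's positive values were set to that floor before log2. The comparison of the groups used lmFit and eBayes of limma 3.58.1 (R 4.3.3), 2-sided and without a block. P-values were adjusted by Benjamini-Hochberg over all 3439 probes, and 0.05 was the threshold. Moderated F tests with terms for number pair and its interaction with treatment used the same arrays. The fits were tested on simulated data, in which arrays were drawn independently, without the likeness of number pairs. That simulation therefore does not check error rates under such likeness. The number of arrays limits the precision. Arrays with the same number, taken from the sample titles, deviated together across groups (r of 0.297 to 0.545 over all probes, and 0.158 to 0.273 over probes above 0 on all arrays). Whether arrays of different numbers did so less was not tested, so pairing by single number is not shown. The number entered as a block in an alternative fit. Symbols of the platform's annotation, some of them old, were updated to TAIR10.1, to which 690 of 692 single-gene probes matched. Named are the 4 genes, listed genes with a single-gene probe, and the 3 most alike single-gene probes of each, left out for CBL, whose values were at the floor on 4 arrays. Probes with several genes are given by number. The genes, lists and tests were chosen with earlier results of these data known.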

Additional observations from a re-analysis of the deposited data

Results flagged for a closer look

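The highest or lowest array of each group of 6 was set against the others, for the 4 genes, PSAN, the shared probes and the most alike genes. An array stood apart in 3 of 42 such groups (chance gives about 1 in 20), and none of the 3 belongs to APS4, CBL, AT-HF or CYN. For probe 301, which carries 2 histidine synthesis genes, water replicate 2 read 1.97, and the next brightest of its group 1.40. Probe 1872, which carries several genes, was listed at 0 on 5 arrays of each group and read 0.0591 on water replicate 2 and 0.0705 on staurosporine replicate 3. With 5 arrays at 0, the remaining array stands apart by construction, so the rate of 1 in 20 does not cover this probe.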

How the results depend on the processing

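Of 3439 probes, 788 passed the limma comparison of the groups, 48.4% of them higher after staurosporine, a share that became 60.6% when no further normalization was done and 34.4% after median centring. The count was 9 with the number pairs averaged, 2 with the averaged pairs and the number pair as a block, 191 with number pairs as random blocks and 377 without numbers 5 and 6 of both groups. These settings count fewer separate samples by construction. It was 614 to 751 with 1 array left out. With the replicate number as a block 809 passed, and that block changed the call of none of the 4 genes. The interaction of treatment and number pair passed for 989 probes, and for 537 to 1017 with 1 array left out, the fewest without water replicate 6 (537) or 5 (567), for which the cause was not tested. The number pair term passed for 1467 probes, and for 1080 to 1473 with 1 array left out. Of 83 recomputed log2 changes of the 4 genes, 82 stayed within 1 SD between arrays of the main value, a wide margin for CBL. The exception was CYN after median centring (-1.16). Fits with a block, with averaged number pairs or with only probes above 0 are among the 83. They leave the log2 change as it was by construction, so the count of 82 overstates its stability. APS4, which did not pass the comparison of the groups, passed without staurosporine replicate 1 or 3 and when only probes above 0 on all arrays were tested, a setting without CBL. AT-HF and CYN passed both there and with 1 array left out, but these genes were chosen by this contrast, and neither passed with the number pairs averaged (limma adjusted p 0.118 and 0.145). The number pair term of CBL was at 0.0575 without further normalization. Of the 12 most alike genes, those of CBL included, 3 stayed among the closest 3 with the group means kept. Values at or under the floor limit what can be read for CBL.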
